A study of Mus musculus with 12 samples.

Results

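The cholesterol genes examined here were 31 mouse genes of sterol synthesis, of its control and of sterol uptake, transport, storage and efflux. They were chosen by name, and each was read from the probe set that the array annotation assigns to that gene alone, taking the brightest by mean over the 12 arrays where there were several. Such a probe set was listed for 25 of the 31 genes, and all 25 were among the 11223 genes tested. Of these, 23 were above the array median on all 12 arrays, and Hmgcs1 and Lss on 8, none of them TB13 arrays. They comprised 17 of 19 synthesis enzymes, 4 of 5 regulators of SREBP, and 4 of 7 genes of uptake, transport, storage and efflux. Acat2, Pmvk, Srebf1, Abca1, Nr1h2 and Soat1 were not analysed here.

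The study examined mouse acute myeloid leukaemia (AML) cells on expression arrays, with 3 lines and 4 arrays for each. The line called Trib1 expresses Trib1, a Tribbles pseudokinase known as a driver of myeloid leukaemia. The lines called TB13 and TB14 express Trib1 together with Bcl11a, a zinc-finger transcriptional repressor, so Trib1 is shared by all groups. All were cultured in IMDM containing 10% serum and IL-3 at 5 ng/ml, untreated, and 100 ng of RNA was labelled for each array. The labels do not say whether the 4 arrays of a line came from separate cultures, so the p-values refer to the spread among these arrays alone, and that spread may be technical. The 4 Bcl11a probe sets were dim in all lines (7.65 to 21.5 on the Trib1 arrays, 7.69 to 17.3 in TB13 and 6.70 to 15.7 in TB14) and were above the array median on 0 arrays of the lines labelled with it; no label says whether they cover the introduced sequence, so they do not check the labels. The Trib1 probe sets were dim as well, averaging 25.2 and 15.8 in the Trib1 line, 34.0 and 17.8 in TB13, and 27.4 and 15.8 in TB14. No line here lacks Trib1, so they do not check the labels either. Each group is 1 cell line, so a difference between lines is one between these lines and not between replicated introductions of Bcl11a. In RNA from whole cultures, fewer cells expressing a gene and less of its RNA in each cell cannot be told apart.

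Animal cells build cholesterol from acetyl-CoA through mevalonate, isoprenoid diphosphates, squalene and lanosterol. When sterols in the endoplasmic reticulum are low, the escort protein SCAP carries the SREBP transcription factors to the Golgi, where proteolysis frees them to activate the synthesis genes; INSIG proteins hold SCAP back when sterols are plentiful. Excess sterol gives rise to oxysterols, which activate the LXR nuclear receptors and with them genes of cholesterol export. In leukaemic myeloid cells the same pathway supplies membrane sterol for division and the lipid anchors of signalling proteins.

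Promoter sequence is shown for the member of each class with the largest change in TB13 among those whose window held a motif (the window of Stard4 was not used), and for Hmgcs1, the member whose window held the core of the sterol regulatory element. Each run is the 250 bases before the annotated start site from RefSeq (mouse build GRCm38.p6), on the plus strand of the chromosome, which is the strand of each of these 4 genes, 5′ to 3′. Capitals mark matches, on either strand, to CCAAT (NF-Y; ATTGG on the other strand), GGGCGG (Sp1; CCGCCC on the other strand), CACGTG (the E-box) and TCACNCCAC (the sterol regulatory element core). No matches overlap in these windows.
Lss, chr10:76531355-76531604: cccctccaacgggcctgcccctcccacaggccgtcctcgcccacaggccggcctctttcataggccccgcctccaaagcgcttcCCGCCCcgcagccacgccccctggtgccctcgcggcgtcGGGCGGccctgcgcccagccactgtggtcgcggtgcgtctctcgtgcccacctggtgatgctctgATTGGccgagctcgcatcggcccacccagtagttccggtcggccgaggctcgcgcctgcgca
Insig1, chr5:28071162-28071411: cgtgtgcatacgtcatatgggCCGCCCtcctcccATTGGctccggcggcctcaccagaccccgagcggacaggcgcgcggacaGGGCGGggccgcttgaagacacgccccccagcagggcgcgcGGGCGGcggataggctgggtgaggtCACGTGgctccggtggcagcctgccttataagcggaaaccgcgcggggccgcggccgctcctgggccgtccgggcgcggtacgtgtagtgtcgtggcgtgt
Mylip, chr13:45389492-45389741: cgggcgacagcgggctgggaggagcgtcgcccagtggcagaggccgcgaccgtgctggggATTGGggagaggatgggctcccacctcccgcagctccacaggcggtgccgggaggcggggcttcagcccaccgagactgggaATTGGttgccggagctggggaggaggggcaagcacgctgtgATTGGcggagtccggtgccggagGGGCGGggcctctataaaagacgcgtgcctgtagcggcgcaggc
Hmgcs1, chr13:119690101-119690350: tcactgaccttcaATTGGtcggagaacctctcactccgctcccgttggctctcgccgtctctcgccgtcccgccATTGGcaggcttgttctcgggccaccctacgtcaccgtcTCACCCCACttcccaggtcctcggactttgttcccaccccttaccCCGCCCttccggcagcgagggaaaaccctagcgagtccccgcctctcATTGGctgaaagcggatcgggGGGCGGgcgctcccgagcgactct

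Windows of 300 bases (250 before and 50 after a start site) were used for 26 of the 31 genes, 35 windows in all. The window of Stard4 was left out of these, while the shares of all windows leave none out. A CCAAT match was present in 22 of the 35 windows (62.9%), against 37.4% of all 32851 windows, and in 15 of 16 synthesis enzymes with a window. GGGCGG was present in 26 of the 35 (74.3%, against 35.7% of all) and CACGTG in 7 of the 35 (against 7.15% of all). The sterol regulatory element core was present in 1 window, that of Hmgcs1 (2.86%, against 1.24% of all), with its match 137 to 129 bases before the start site. The LXR element was found in 0 member windows and in 0.015% of all. These matches describe letters in the windows and were not tied to the array values by any test.

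Arrays of TB13 had another intensity distribution than those of Trib1 and TB14, and this bears on every TB13 value below. Array medians were 21.1 to 21.4 in Trib1, 25.5 to 25.9 in TB13 and 20.8 to 21.1 in TB14, in deposited intensity units, while upper quartiles were 102 to 106, 71.8 to 72.5 and 106 to 109. The 18 hybridization controls, which are added to each sample at set amounts, had a median log2 difference of -0.93 in TB13 against Trib1 (17 of 18 lower) and 0.0010 in TB14. The median log2 difference of all 11223 genes in TB13 was -0.39 as deposited, 0.026 after quantile scaling and 0.51 when the arrays were calibrated on those controls. For TB14 it was -0.0024, -0.0051 and -0.038. TB13 results are therefore given as deposited and quantile-scaled, and where the calibration on controls changes a direction or call, that is stated too. The leukocyte and myeloid markers (Ptprc, Spi1, Cebpa, Itgam, Csf1r, Kit, Mpo and Cd33) were all above the array median on all 12 arrays, with summed intensities of 4806 to 4990 in Trib1, 4010 to 4125 in TB13 and 6067 to 6114 in TB14. These sums join opposite moves: Mpo averaged 226, 853 and 2296 in the 3 lines, while Ptprc averaged 1938, 1478 and 1387, Spi1 572, 259.7 and 438, Itgam 260.5, 32.9 and 154, and Csf1r 156, 61.9 and 56.0. Of the 6 stromal and endothelial markers, the 3 collagens and Cdh5 were above the array median on 0 arrays, while Pecam1 averaged 771, 285 and 579; the summed intensities were 813 to 846, 328 to 377 and 616 to 658. Of the other lists, the T cell sums were 207 to 217, 233 to 281 and 141 to 147, the B cell sums 67.3 to 72.9, 96.3 to 108 and 64.6 to 70.4, the erythroid sums 79.8 to 92.2, 128 to 154 and 82.5 to 89.3, and the epithelial and liver sums 82.1 to 88.6, 124 to 156 and 79.4 to 81.7, in the order Trib1, TB13 and TB14. Within the T cell list Cd3e averaged 65.9, 153 and 62.8 and Cd3g 69.0, 14.6 and 13.9. The part of these differences in the cholesterol results was not tested.

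**Figure D1:**
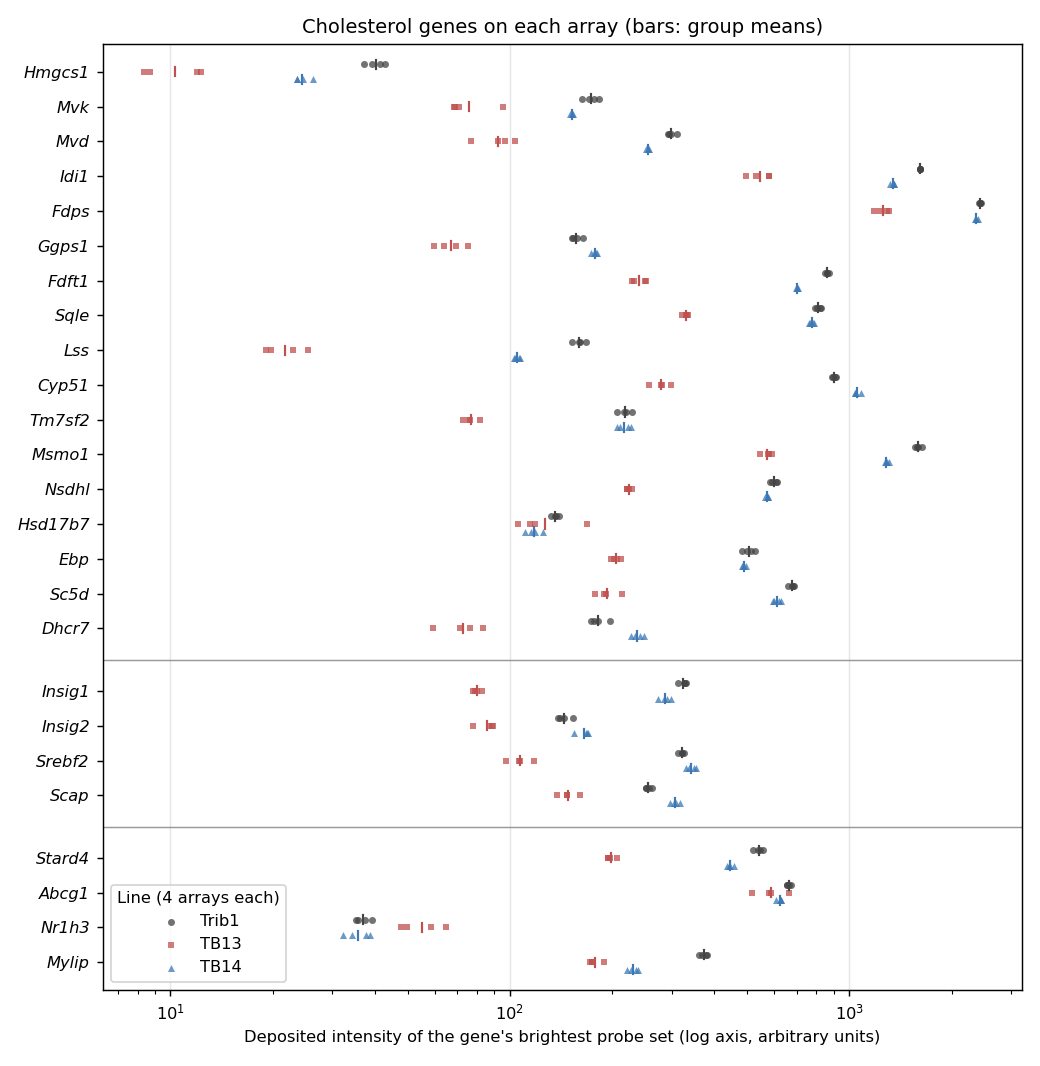
Deposited intensity (log axis, arbitrary units) of the 25 measured cholesterol genes on each of the 12 arrays, with synthesis enzymes at the top, regulators of SREBP in the middle and transport and efflux genes at the bottom; each point is an array and each bar a group mean. For 22 of the 25 genes all 4 TB13 arrays lie below all 4 Trib1 arrays, as they do for 61.6% of all genes tested, and for Nr1h3 all 4 lie above. Levels of different genes come from different probe sets and are not compared.

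Synthesis enzymes were lower in TB13 than in Trib1 at almost every measured step from HMG-CoA to cholesterol. As deposited, 16 of 17 fell and 0 rose, 15 of them by 2-fold or more, with a median log2 difference of -1.37. Among all genes tested, 63.6% were called lower, 29% higher and 14.8% lower by 2-fold or more in that comparison, with a median of -0.39. The 16 enzymes include Hmgcs1 and Lss, which were above the array median on 0 of 4 TB13 arrays. When only genes above it on all 12 arrays were tested, which left out Hmgcs1 and Lss, 14 enzymes were called lower. The share of all genes called lower in that smaller set is not given here. After quantile scaling 16 of 17 fell and 1, Hsd17b7, rose, 6 of them falling by 2-fold or more, with a median of -0.78, where 38.3% of all genes were called lower, 42% higher and 3.92% lower by 2-fold or more. Calibrated on the hybridization controls, 12 fell and 1 rose with a median of -0.48, against 11.9% of all genes lower and 73.3% higher with a median of 0.51. The same 16 of 17 measured enzymes, all but Hsd17b7, lay below the median of all genes under each of these scalings. All log2 differences were taken on intensities to which 12.7 was added, which understates the change of dim genes, and calls are at an adjusted p under 0.05 by limma over all genes tested.

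In TB14 the enzymes shifted by less and in both directions. As deposited, 7 of 17 fell (Hmgcs1, Mvd, Idi1, Fdft1, Lss, Msmo1 and Sc5d) and 3 rose (Ggps1, Cyp51 and Dhcr7), 0 of them by 2-fold or more, with a median log2 difference of -0.14. Of all genes, 21.5% were called lower and 27% higher in this comparison. Quantile-scaled values gave 9 lower and 2 higher, against 20.8% and 22.9% of all genes. When the 8 Trib1 and TB14 arrays were fitted without the TB13 arrays, 12 of 17 enzymes were called lower, the added ones being Mvk, Fdps, Sqle, Nsdhl and Hsd17b7; in that fit 28.8% of 10761 genes were called lower and 35.4% higher. Cyclic loess scaling gave 13 lower and 2 higher. The shares of all genes under that scaling are not given here, so these counts cannot be read against them.

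The first measured step is Hmgcs1, the cytosolic synthase that condenses acetoacetyl-CoA to HMG-CoA. Its probe set was dim, with intensities of 37.3, 42.9, 39.2 and 41.4 on the Trib1 arrays, 11.99, 12.3, 8.38 and 8.71 on the TB13 arrays and 24.6, 23.6, 23.5 and 26.2 on the TB14 arrays. The 3 groups did not overlap, and TB13 was lowest. Hmgcs1 fell by 1.203 on the log2 scale in TB13 (SE 0.057, adjusted p = 1.76e-13) and by 0.51 in TB14 (SE 0.057, adjusted p = 3.71e-07). Quantile scaling gave -1.26 and -0.46. On the TB13 arrays the probe set was above the array median on 0 of 4 arrays and read below the added 12.7, so the size of its fall in TB13 depends on that constant. Calibrated on the controls the TB13 difference was 0.0043 (adjusted p = 0.958). By mean over the 12 arrays, Hmgcs1 and Nr1h3 were dimmer than every control. Outside the range of the controls on an array the calibration applies a constant shift, so calibrated values of genes as dim as these may rest on that shift.

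Mevalonate is next phosphorylated by the kinase Mvk and later decarboxylated by Mvd to isopentenyl diphosphate. Mvk averaged 173 ± 8.45 (SD, n = 4) in Trib1, 75.9 ± 13.2 in TB13 and 152 ± 1.42 in TB14. Mvk fell by 1.08 in TB13 (0.53 after quantile scaling, and 0.039 higher, not called, when calibrated on the controls), while its difference in TB14 was -0.17 (adjusted p = 0.0589). Mvd averaged 299 ± 7.88, 92.3 ± 11.4 and 255 ± 1.78, and fell by 1.58 in TB13 (0.90 after quantile scaling) and by 0.22 in TB14 (adjusted p = 0.00449). All 4 TB14 arrays lay below all 4 Trib1 arrays for both genes by these probe sets. The dimmer Mvk probe set differed by -0.69 in TB13 (-0.64 after quantile scaling) and by -0.0050 in TB14, so a TB14 fall of Mvk rests on the brightest one. The dimmer Mvd probe set differed by -1.40 in TB13 (-0.75 after quantile scaling) and by -0.098 in TB14.

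The isoprenoid steps are run by Idi1, which isomerises isopentenyl diphosphate, Fdps, which makes farnesyl diphosphate, and Ggps1, which makes geranylgeranyl diphosphate for protein prenylation. Idi1 read 1612 to 1619 in Trib1, 496 to 581 in TB13 and 1319 to 1354 in TB14. It fell by 1.54 in TB13 (1.09 after quantile scaling) and by 0.27 in TB14 (adjusted p = 4.40e-06), and none of the 3 ranges overlapped. Fdps, the brightest probe set of the 25, read 2410 to 2436, 1182 to 1310 and 2346 to 2386; it fell by 0.95 in TB13 (0.71 after quantile scaling), and its TB14 difference of -0.035 did not pass the test (adjusted p = 0.253). Ggps1 read 152 to 164, 59.8 to 75.1 and 173 to 181, so that TB13 was lowest and TB14 highest. It fell by 1.09 in TB13 (0.62 after quantile scaling; 0.043 higher, not called, on the control calibration) and rose by 0.17 in TB14 (adjusted p = 0.0163). The TB14 call for Ggps1 was lost without Trib1 replicate 1 (0.16, adjusted p = 0.0503) and after quantile scaling (0.13, adjusted p = 0.15). Its dimmer probe sets were also higher in TB14, by 0.21 and 0.15, while in TB13 they gave -0.66 and -0.12 (-0.51 and 0.059 after quantile scaling).

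Squalene is made from farnesyl diphosphate by Fdft1, epoxidised by Sqle, a rate-limiting step, and cyclised to lanosterol by Lss. Lss had the largest change of the 25 genes in TB13 as deposited and after quantile scaling, though not on the control calibration, where Nr1h3 was 1.60 higher. Its intensities were 152, 161, 160 and 167 in Trib1, 19.1, 25.3, 23.0 and 19.8 in TB13, and 103, 106, 107 and 104 in TB14. The groups were fully separated, with TB13 lowest, where Lss exceeded the array median on 0 of 4 arrays. Lss fell by 2.33 on the log2 scale in TB13 (SE 0.058, adjusted p = 2.72e-17), and by 0.55 in TB14 (SE 0.058, adjusted p = 1.48e-07). Because its TB13 values lay below the array median, no exact fold is given for that line. The fall in TB13 was 2.24 after quantile scaling and 1.12 on the control calibration.

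Fdft1 read 847, 859, 856 and 870 in Trib1, 250.5, 229, 252 and 232 in TB13, and 704, 699.7, 698 and 699 in TB14. It fell by 1.78 in TB13 (1.09 after quantile scaling) and by 0.29 in TB14 (adjusted p = 3.24e-07), with each TB14 array below each Trib1 array. Sqle averaged 809 ± 13.6, 329 ± 5.12 and 775 ± 12.1 (SD, n = 4). It fell by 1.27 in TB13 (0.61 after quantile scaling), and its TB14 difference of -0.062 was not called (adjusted p = 0.0587) although the TB14 arrays, at 762 to 787, were all below the Trib1 arrays, at 795 to 823. Without TB13 arrays in the fit that difference was called (adjusted p = 0.00301).

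After lanosterol, Cyp51 removes a methyl group at the first demethylation step, and Tm7sf2 reduces the double bond this leaves. Cyp51 read 897, 910, 908 and 891 in Trib1, 278, 299, 257 and 279.9 in TB13, and 1042, 1044, 1082 and 1038 in TB14. Every TB13 array was below and every TB14 array above the Trib1 arrays. Cyp51 fell by 1.65 in TB13 (0.99 after quantile scaling and 0.86 on the control calibration) and rose by 0.22 in TB14 (SE 0.035, adjusted p = 2.97e-05), and the rise in TB14 was called under each of the 5 scalings. Its next brightest probe set gave -1.83 in TB13 and 0.16 in TB14. Tm7sf2 averaged 218 ± 9.20, 76.8 ± 3.80 and 217 ± 9.48, a fall of 1.37 in TB13 (0.78 after quantile scaling) and a difference of -0.0063 in TB14 with overlapping arrays.

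Msmo1 and Nsdhl act in turn on the paired methyl groups of the sterol ring, and Hsd17b7 reduces the resulting ketone. Msmo1 read 1585, 1632, 1596 and 1564 in Trib1, 577, 578, 591 and 545 in TB13, and 1309, 1287, 1271 and 1279 in TB14. It fell by 1.46 in TB13 (1.01 after quantile scaling) and by 0.31 in TB14 (SE 0.025, adjusted p = 3.63e-09), with no overlap between groups. Nsdhl averaged 599 ± 12.7, 224 ± 3.94 and 572 ± 4.09, falling by 1.37 in TB13 (0.64 after quantile scaling), with a TB14 difference of -0.066 (adjusted p = 0.0755).

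Hsd17b7 was the one enzyme not called lower in TB13 as deposited. Its intensities were 132, 136, 136 and 139.7 in Trib1, 119, 115, 169 and 105 in TB13, and 115, 125, 111 and 118 in TB14. One TB13 array, replicate 3, lay above all Trib1 arrays and the other TB13 arrays below them, and the TB13 difference was -0.11 (adjusted p = 0.247). Without that array it was called lower, at -0.24 (adjusted p = 0.000269), whereas quantile scaling of all arrays turned it to 0.55 higher (adjusted p = 9.23e-05) and the control calibration to 0.95 higher. Another probe set for Hsd17b7 averaged 107 ± 2.56, 49.9 ± 12.7 and 113 ± 3.66, with a TB13 difference of -0.96 as deposited and -0.74 after quantile scaling, so its probe sets disagree and no direction is settled for this gene.

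The last measured steps are the isomerase Ebp, the desaturase Sc5d and the reductase Dhcr7, which makes cholesterol from 7-dehydrocholesterol. Ebp averaged 505 ± 18.6, 205 ± 6.24 and 489 ± 5.20, with a fall of 1.25 in TB13 (0.50 after quantile scaling) and a TB14 difference of -0.045 (adjusted p = 0.318). Sc5d averaged 677 ± 12.5, 193 ± 15.2 and 613 ± 15.8, and fell by 1.75 in TB13 (1.02 after quantile scaling) and by 0.14 in TB14 (adjusted p = 0.00928). Of its dimmer probe sets, 1 gave -1.39 and -0.30 and the other 0.078 and 0.030 in TB13 and TB14. Dhcr7 read 177, 182, 197 and 174 in Trib1, 76.2, 59.5, 71.4 and 83.2 in TB13, and 227, 234, 249 and 241 in TB14. As for Cyp51, the TB13 arrays were all below and the TB14 arrays all above Trib1. Dhcr7 fell by 1.201 in TB13 (0.66 after quantile scaling, and 0.078, not called, on the control calibration) and rose by 0.36 in TB14 (SE 0.068, adjusted p = 0.000195), the largest rise of a member in that line.

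**Figure D2:**
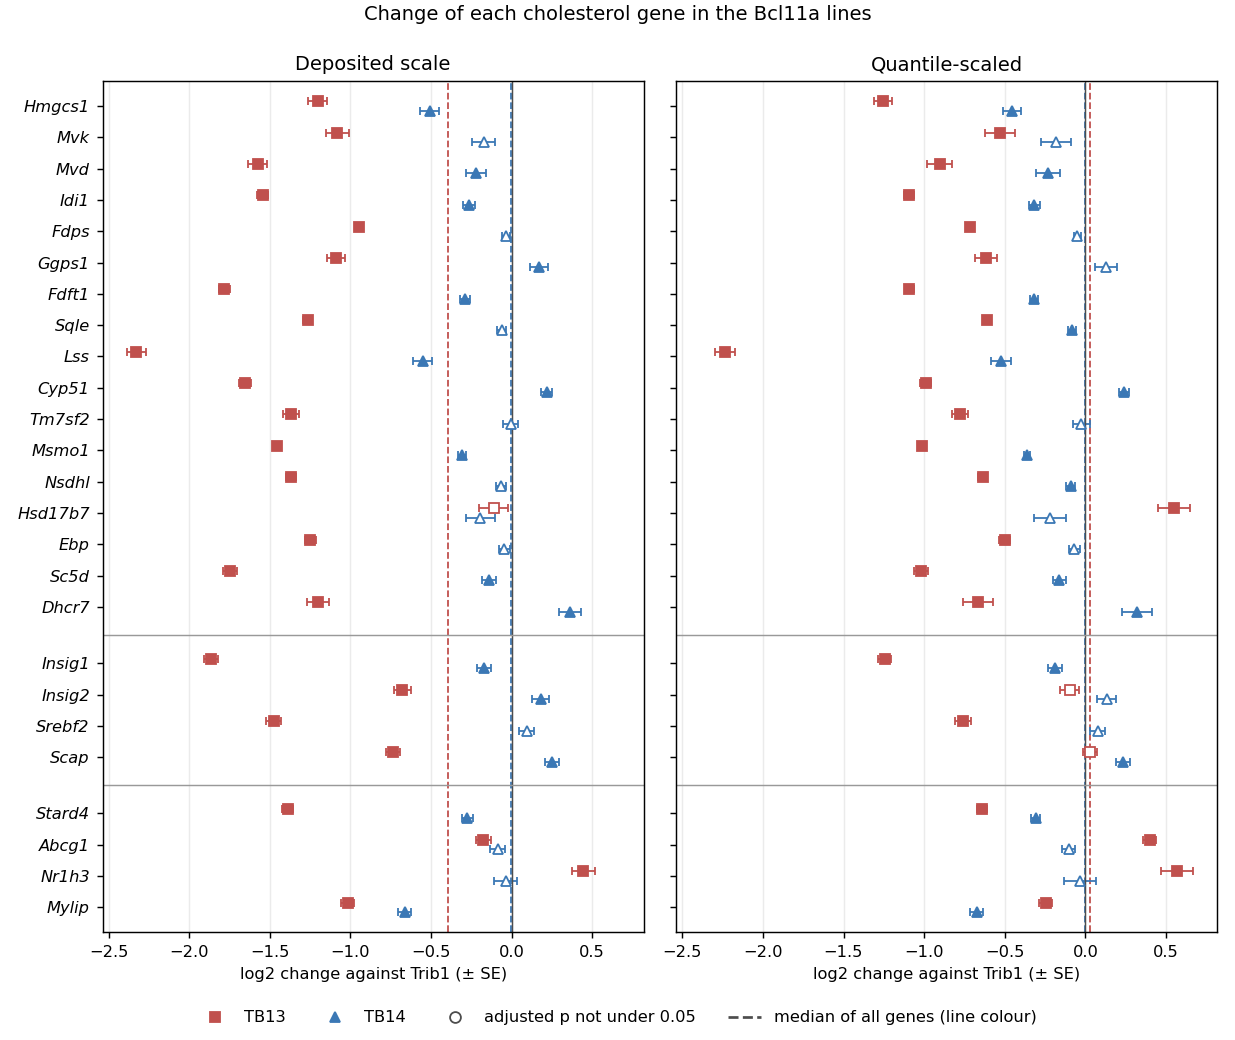
Log2 difference from Trib1 (± SE) of each cholesterol gene in TB13 (squares) and TB14 (triangles), as deposited on the left and after quantile scaling on the right; open symbols mark an adjusted p of 0.05 or more, and dashed lines the median of all genes in each line. In both panels 16 of 17 synthesis enzymes lie to the left of the TB13 dashed line, from -0.95 to -2.33 as deposited, while TB14 values run from -0.55 to 0.36.

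The 4 measured regulators of SREBP all fell in TB13 as deposited, and by their brightest probe sets Insig1 and Srebf2, but not Insig2 and Scap, also did so under quantile scaling, cyclic loess scaling and the control calibration. Of all genes, 63.6% were called lower in TB13 as deposited, 38.3% after quantile scaling and 11.9% on the control calibration. Insig1, an SREBP target that retains the SCAP complex in the endoplasmic reticulum, read 330.2, 329, 312 and 326 in Trib1, 79.8, 79.2, 83.0 and 77.7 in TB13, and 299, 285, 291 and 273 in TB14. The 3 groups were fully separated. Insig1 fell by 1.86 in TB13 (SE 0.041, adjusted p = 5.03e-18; 1.24 after quantile scaling, 0.78 on the control calibration) and by 0.17 in TB14 (SE 0.041, adjusted p = 0.00184). Srebf2, which encodes the SREBP most directed to cholesterol genes, read 325, 313, 322 and 321 in Trib1, 106, 118, 107 and 97.3 in TB13, and 331, 348, 354 and 337 in TB14. It fell by 1.48 in TB13 (0.76 after quantile scaling), while its TB14 difference was 0.092 (adjusted p = 0.117). A dimmer probe set for Srebf2 averaged 118 ± 0.869, 106 ± 6.30 and 132 ± 11.3, a TB13 difference of -0.15 as deposited and 0.48 after quantile scaling, so the fall in TB13 rests on the brightest probe set.

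Scap, and Insig2 by its brightest probe set, were lower in TB13 as deposited but not after quantile scaling. Scap, the escort protein, read 251, 251, 256 and 261 in Trib1, 147, 161, 138 and 147 in TB13, and 308, 295, 305 and 317 in TB14. The TB13 arrays were lowest and the TB14 arrays highest. It fell by 0.74 in TB13 as deposited, but was 0.031 higher after quantile scaling (adjusted p = 0.520) and rose by 0.28 on the control calibration; in TB14 it rose by 0.25 (SE 0.044, adjusted p = 7.81e-05) and was called higher under all 5 scalings. Insig2, the SREBP-independent relative of Insig1, averaged 144 ± 6.83, 85.5 ± 5.17 and 165 ± 7.24. It fell by 0.68 in TB13 as deposited, with -0.097 after quantile scaling (adjusted p = 0.139) and a rise of 0.43 on the control calibration, and rose by 0.18 in TB14 (adjusted p = 0.00724; 0.13 and not called after quantile scaling). The dimmer probe sets of Insig2 differed in TB13 by -1.16 and -1.29 as deposited and by -0.78 and -1.31 after quantile scaling, so its probe sets disagree there. In TB14 they differed by -0.0075 and -0.064, so its rise in that line rests on the brightest one.

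Of the 4 measured genes of uptake, transport, storage and efflux, Stard4, Mylip and Abcg1 fell and Nr1h3 rose in TB13 as deposited. That split is near the shares of all genes in this comparison, 63.6% called lower and 29% higher. Stard4, a cytosolic sterol carrier and SREBP target, read 521, 556, 539.9 and 545 in Trib1, 207, 195, 198 and 195 in TB13, and 435, 443, 456 and 444 in TB14. It fell by 1.39 in TB13 (0.64 after quantile scaling, 0.47 on the control calibration) and by 0.27 in TB14 (adjusted p = 1.15e-06), with separated groups. Its other probe sets fell further or nearly as far in TB13 (-1.73 and -1.11) but were higher in TB14, by 0.44 and 0.27, so no direction is settled for Stard4 in TB14.

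Mylip, an LXR-induced ubiquitin ligase known to limit lipoprotein uptake, had the largest change of any member in TB14. It read 361, 379, 369 and 381 in Trib1, 175, 172, 174 and 189.9 in TB13, and 228, 221, 235 and 238 in TB14. Both Bcl11a lines lay below Trib1 on every array. Mylip fell by 0.66 in TB14 (SE 0.041, adjusted p = 5.03e-11), a 1.58-fold difference that was -0.65 to -0.72 under the other 4 scalings. In TB13 Mylip fell by 1.02 on the deposited scale (0.25 after quantile scaling), and differed by -0.052 on the control calibration (adjusted p = 0.414). Which Bcl11a line was lower therefore depended on the scaling: TB14 was 0.35 above TB13 as deposited and 0.43 below it after quantile scaling.

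Abcg1, an LXR-induced exporter of cholesterol, read 672, 666, 657 and 657 in Trib1, 581, 665, 588 and 518 in TB13, and 629.8, 627, 608 and 631 in TB14. The TB13 arrays were spread widely and 1 of them reached the Trib1 range. Abcg1 fell by 0.18 in TB13 as deposited (SE 0.048, adjusted p = 0.00214) but rose by 0.40 after quantile scaling, 0.42 after cyclic loess scaling and 0.52 on the control calibration; its dimmer probe set gave -0.36 as deposited and -0.43 after quantile scaling. No direction is settled for it in TB13. The TB14 difference was -0.087 (adjusted p = 0.153). Nr1h3, which encodes LXR alpha, was dim at 39.3, 37.5, 35.2 and 35.8 in Trib1, 64.7, 47.8, 49.8 and 58.5 in TB13, and 38.8, 32.1, 37.8 and 34.2 in TB14. All TB13 arrays were above all Trib1 and TB14 arrays. It rose by 0.45 in TB13 (SE 0.070, adjusted p = 7.39e-06) and was called higher under all 5 scalings (0.27 to 1.60), and its TB14 difference was -0.037 (adjusted p = 0.713). As deposited, genes as dim as Nr1h3 were also higher in TB13, with a median of 0.12 in its brightness quintile, and 67.7% of that quintile lay below it. On the control calibration 73.3% of all genes were called higher in TB13, so its calls do not set Nr1h3 apart from other genes.

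**Figure D3:**
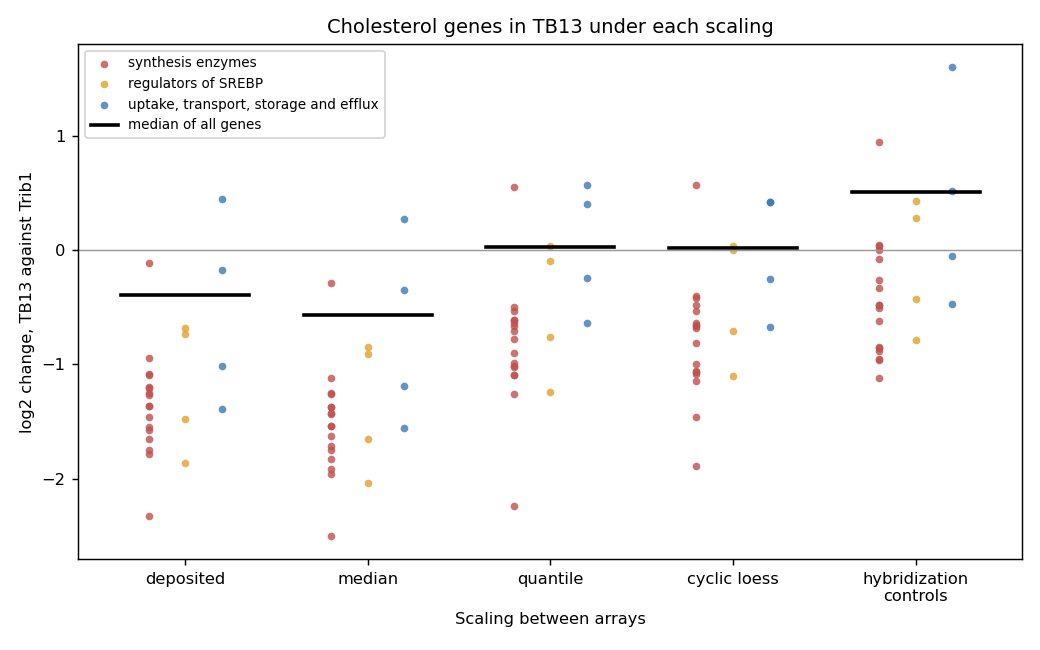
Log2 difference of TB13 from Trib1 for the 25 cholesterol genes under each of 5 scalings between arrays; points are genes, coloured by class, and the black bar is the median of all 11223 genes. The bar moves from -0.57 (median scaling) to 0.51 (calibration on hybridization controls), and 16 of 17 synthesis enzymes lie below it as deposited, after quantile scaling and on the control calibration.

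Across the 25 genes, TB13 had 23 lower and 1 higher as deposited (63.6% and 29% of all genes), with a median log2 difference of -1.27, and 22 genes had every TB13 array below every Trib1 array, as had 61.6% of all genes. Quantile scaling left 20 lower and 3 higher (38.3% and 42% of all genes) with a median of -0.66, and the control calibration 15 lower and 5 higher (11.9% and 73.3% of all genes) with a median of -0.43. In TB14, 10 were lower and 5 higher (21.5% and 27% of all genes) with a median of -0.087, and 16 had every TB14 array below every Trib1 array, against 25.5% of all genes; without the TB13 arrays in the fit 16 were called lower and 6 higher (28.8% and 35.4% of all genes). Because the change of a gene in TB13 depended on its brightness, with deposited medians of 0.31, 0.12, -0.67, -0.82 and -0.50 from the dimmest to the brightest quintile of genes, members were also ranked within their own quintile. Quintiles were set by mean log2 intensity over all 12 arrays, those of TB13 included. A fall in TB13 can itself move a gene to a dimmer quintile, so these ranks are not independent of the change they describe. In TB13, 11 of 17 enzymes and 14 of 25 members were in the lowest 10% of their quintile, Hmgcs1 and Lss with their dim TB13 values among them, and in TB14 3 and 4 were. Of the 23 members above the array median on all 12 arrays, Fdft1 and Sc5d were lowest by this rank in TB13, with 0.401% and 0.490% of their quintile below them.

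**Figure D4:**
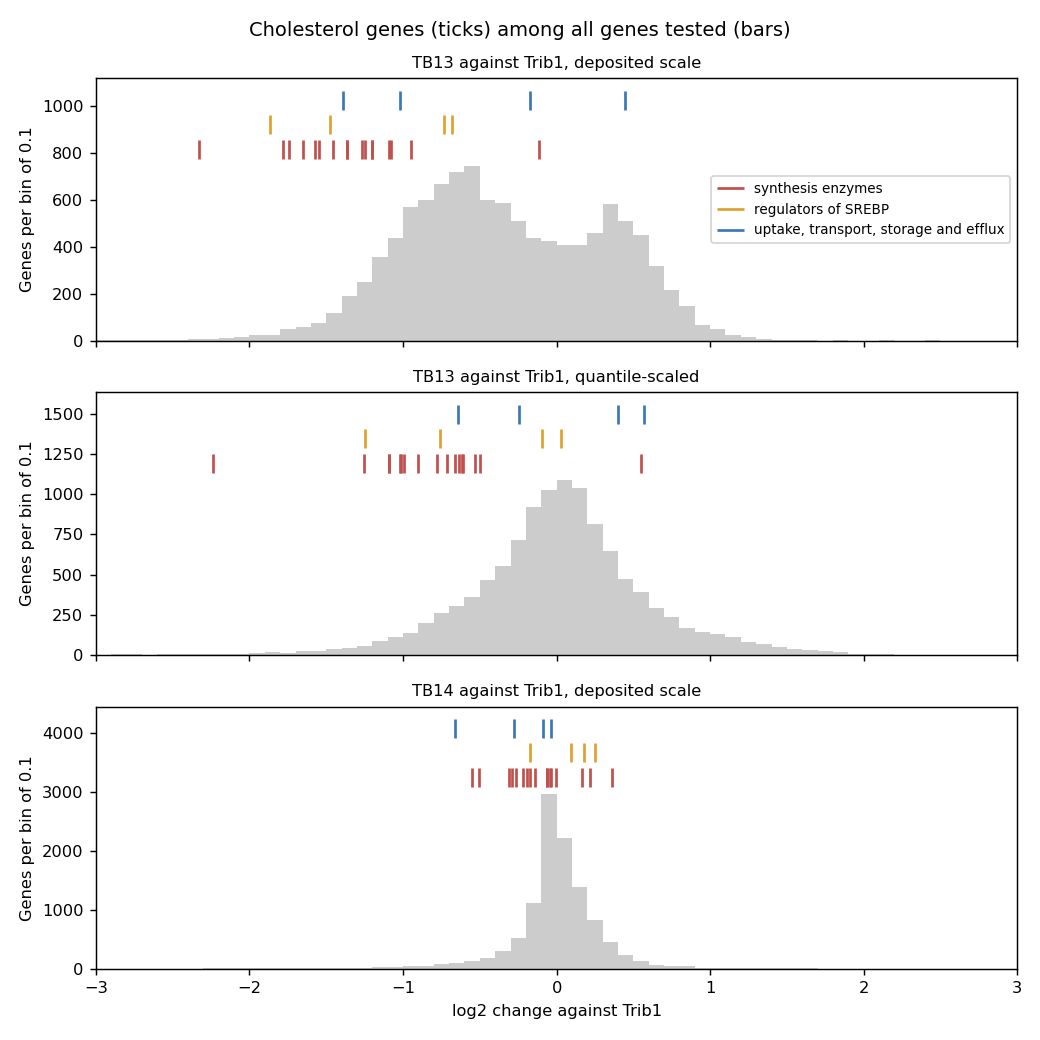
Distribution of log2 differences from Trib1 over all 11223 genes (grey bars, bins of 0.1) with each cholesterol gene as a tick coloured by class, for TB13 as deposited, TB13 after quantile scaling and TB14 as deposited. The enzyme ticks lie in the lower part of both TB13 distributions (medians -1.37 and -0.78), apart from Hsd17b7, and are spread from -0.55 to 0.36 in TB14.

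Taking both Bcl11a lines together with equal weight, 23 members were lower and 1 higher than in Trib1 as deposited, with a median of -0.69, against 55.9% of all genes lower and 28.4% higher. Quantile scaling gave 19 and 3 members, against 31.7% and 38.6% of all genes. Lss was lowest at -1.44 (-1.38 after quantile scaling), followed by Fdft1 at -1.04 and Insig1 at -1.02. The place of Lss rests in part on dim values, since it was above the array median on 0 of 4 TB13 arrays. The lines share the Trib1 arrays, so similarity between their differences was not used as a result.

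Compared directly, TB14 was above TB13 for 22 members and below it for 1, Nr1h3, as deposited, with a median log2 difference of 1.203, where 63.4% of all genes were higher and 29.4% lower. After quantile scaling 21 were higher and 4 lower (Hsd17b7, Abcg1, Nr1h3 and Mylip), with a median of 0.66, against 38.9% and 41.1% of all genes. As deposited the largest difference was that of Cyp51 at 1.87, followed by Lss at 1.77 and Insig1 at 1.69. After quantile scaling the largest was that of Lss at 1.71, followed by Cyp51 at 1.23. Both values for Lss rest on dim TB13 readings, above the array median on 0 of 4 arrays. As deposited, Ggps1, Cyp51, Dhcr7, Insig2 and Scap were called lower in TB13 and higher in TB14 than in Trib1. Against Trib1, 63.6% of all genes were called lower in TB13 and 27% higher in TB14, and the share with both calls was not counted.

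Other genes of lipid metabolism were read from lists chosen by function. Fatty acid synthesis and desaturation, which SREBPs also drive, had 15 of 16 tested genes lower and 1 higher in TB13 (median -0.81), 10 lower and 3 higher after quantile scaling (median -0.17), and 6 lower and 6 higher on the control calibration (median -0.045). The shares of all genes called lower and higher in TB13, against which these and the following lists are read, were 63.6% and 29% as deposited, 38.3% and 42% after quantile scaling, and 11.9% and 73.3% on the control calibration; in TB14 they were 21.5% and 27%. In TB14 8 of the 16 were higher and 2 lower (median 0.098; 7 and 3 after quantile scaling), whereas the sterol enzymes had 3 higher and 7 lower. Aacs, which activates acetoacetate for sterol and fatty acid synthesis, averaged 360 ± 19.9, 137 ± 13.6 and 480 ± 15.6 (SD, n = 4), a fall of 1.32 in TB13 (0.56 after quantile scaling) and a rise of 0.40 in TB14 (adjusted p = 3.80e-06). The desaturase Scd1 fell by 1.03 in TB13 (0.47 after quantile scaling) and rose by 0.18 in TB14 (adjusted p = 0.000746). Fads1, another desaturase, fell by 1.14 in TB13 (0.39) and the acetyl-CoA carboxylase regulator Mid1ip1 by 0.96 (0.22), with TB14 differences of 0.033 and 0.020 that were not called; on the control calibration Mid1ip1 differed by -0.070 in TB13, not called.

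SREBP processing and sterol sensing in the endoplasmic reticulum had 9 of 9 tested genes lower in TB13 (median -0.80), but 5 lower and 1 higher after quantile scaling (median -0.12) and 1 lower and 4 higher on the control calibration; in TB14 1 was lower and 3 higher. For all genes the TB13 shares lower and higher were 63.6% and 29%, 38.3% and 42%, and 11.9% and 73.3% in the same order. The sterol-responsive ubiquitin ligase Rnf139 fell by 1.07 in TB13 (0.35 after quantile scaling), the coat protein Sec24d by 0.98 (0.22) and the site-1 protease Mbtps1, which cleaves SREBPs, by 0.97 (0.20); their TB14 differences of -0.067, -0.040 and 0.055 were not called, and on the control calibration Sec24d and Mbtps1 differed by 0.033 and 0.0089 in TB13, not called. Tmem97 averaged 465 ± 14.4, 259 ± 15.8 and 564 ± 4.35; it fell by 0.82 in TB13 as deposited, with -0.072 after quantile scaling (adjusted p = 0.057) and 0.070 on the control calibration (adjusted p = 0.198), and rose by 0.27 in TB14 (adjusted p = 7.41e-06).

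The isoprenoid branches, which use farnesyl and geranylgeranyl diphosphate for dolichol, ubiquinone and protein prenylation, had 9 of 10 tested genes lower in TB13 (median -0.67), 5 lower and 1 higher after quantile scaling (median -0.16), and 1 lower and 8 higher on the control calibration; in TB14, 0 were lower and 2 higher (0 and 0 after quantile scaling). On the control calibration these TB13 counts are near the shares of all genes, 11.9% lower and 73.3% higher, and as deposited 63.6% of all genes were lower. Nus1, a subunit of the dolichol-forming prenyltransferase, fell by 1.55 in TB13 (0.82 after quantile scaling, 0.66 on the control calibration), with all 4 TB13 arrays at 199 to 216 and the Trib1 arrays at 623 to 644; its TB14 difference was -0.048 (adjusted p = 0.232). The prenyltransferase subunit Pggt1b fell by 1.17 in TB13 (0.70 after quantile scaling; -0.031, not called, on the control calibration). Coq2 of ubiquinone synthesis and Dhdds, the catalytic partner of Nus1, fell by 0.77 and 0.70 as deposited, and after quantile scaling differed by 0.00075 and -0.013, not called, and on the control calibration rose by 0.19 and 0.38.

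Sterol handling outside the 31 genes had 10 of 14 tested genes lower and 4 higher in TB13 (5 lower and 6 higher after quantile scaling, 1 and 10 on the control calibration), and 6 lower and 4 higher in TB14. The TB13 counts are near the shares of all genes lower and higher, which were 63.6% and 29% as deposited, 38.3% and 42% after quantile scaling, and 11.9% and 73.3% on the control calibration. Scarb1, the HDL receptor that takes up cholesteryl ester, had the largest rise of any gene on these lists. It averaged 57.9 ± 1.33 in Trib1, 123 ± 2.24 in TB13 and 343 ± 10.2 in TB14, with ranges of 56.4 to 59.4, 121 to 126 and 331 to 356 that did not overlap. Scarb1 rose by 0.94 in TB13 (1.48 after quantile scaling, 2.00 on the control calibration) and by 2.33 in TB14 (SE 0.043, adjusted p = 5.06e-19), a 5.03-fold difference. The sterol transporters Gramd1a and Stard3 fell in TB14 by 0.50 and 0.45, and the cholesteryl ester hydrolase Nceh1 rose by 0.37. In TB13 these 3 fell by 1.12, 0.87 and 0.97 as deposited; after quantile scaling Gramd1a fell by 0.71 and Nceh1 by 0.20, while Stard3 differed by -0.10 (adjusted p = 0.138), and on the control calibration Gramd1a and Nceh1 differed by 0.022 and 0.036, not called, and Stard3 rose by 0.16.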

How the data were processed

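Gene expression was measured on 12 one-colour arrays, 4 for each of 3 lines named in the sample titles. The deposited intensity values are on a linear scale for 45141 probe sets and come from MAS5, a step of the authors named in the submitters' processing notes; how that step handled the TB13 arrays, and any detection calls, were not used here. Of the probe sets, 28898 were annotated to 1 gene, 551 to several, 15588 to none and 104 were controls; annotations came from GEO's platform table, and 0 symbols needed updating. The members and gene lists were chosen with earlier results of these data known.

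Intensities were transformed as log2(value + 12.7), the added value being the 25th percentile of all values. Probe sets above the array median on at least 4 of 12 arrays were kept, 1 per gene (the brightest), giving 11223 genes. A linear model with 3 groups was fitted with limma 3.58.1 (R 4.3.3; lmFit and eBayes with trend), and p-values were adjusted by Benjamini-Hochberg over all genes. The number of arrays limits the precision; the median within-group SD was 0.071 on the log2 scale over all genes and 0.063 over members. Genes named from the other lists are up to 4 each with the largest absolute change among those called.

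Alternatives were scaling by quantile, median or cyclic loess, a calibration to the 18 hybridization controls (a quadratic curve per array, with a constant shift outside their range), other pseudocounts (1 and 50), no filter or a filter of all 12 arrays, no trend, robust eBayes, other probe sets, a 2-fold threshold, leaving out each array, the replicate number as a block, and, added after seeing the data, leaving out the TB13 arrays. On simulated data with known changes in 200 of 11223 genes, the TB13 comparison recovered 84% of genes changed 1.2-fold and 100% of those changed 1.5-fold, and the TB14 comparison 78% and 100%. The simulated arrays had independent normal noise and, apart from the changed genes, the same gene means in all lines. They held no shift in intensity like that of the TB13 arrays and were not rescaled. They therefore do not show how the TB13 comparison performs under such a shift. The same replicate number in 2 lines did not pair the arrays: deviations from group means correlated from -0.11 to 0.12, over 0.1 in 1 of 12 pairs. Two-sided tests were used. Figures were drawn with matplotlib 3.10.9.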

Additional observations from a re-analysis of the deposited data

Results flagged for a closer look

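In groups of 4 arrays, a lone value was singled out when its gap to the nearest array as a share of the group's range on the log2 scale exceeded Dixon's critical value for 4 values. This held for 4 of 75 groups examined, where chance would single out about 1 in 20. Mvk in TB13 had a gap of 0.896 of the range, with replicate 1 at 95.7 and the others at 68.3 to 70.8. Idi1 in TB14 had 0.861, with replicate 4 lowest at 1319 and the others at 1349 to 1354. Cyp51 in TB14 had 0.876, with replicate 3 highest at 1082 and the others at 1038 to 1044. Insig2 in TB14 had 0.875, with replicate 2 lowest at 155 and the others at 168 to 170.0. The calls of these genes in those comparisons held without the array named.

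As deposited, 5 genes were called lower in TB13 and higher in TB14 against the same Trib1 arrays, and the difference between the lines itself passed limma's test. Of all genes, 63.6% were called lower in TB13 and 27% higher in TB14. The share of all genes with both calls was not counted, so these 5 are not set apart from other genes. TB14 exceeded TB13 on the log2 scale by 1.26 for Ggps1, 1.87 for Cyp51, 1.56 for Dhcr7, 0.86 for Insig2 and 0.99 for Scap. Under calibration on the hybridization controls only Cyp51 of these 5 was still called lower in TB13.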

How the results depend on the processing

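The counts that moved by more than 1.5 times did so mainly with the scaling and with the fold threshold. Members called lower in TB13 (23 as deposited) numbered 15 on the control calibration and 7 with quantile scaling and a 2-fold threshold, where enzymes numbered 6 (16 as deposited). Members called higher in TB13 (1) numbered 3 with quantile and 3 with cyclic loess scaling, 5 on the control calibration and 0 at 2-fold, also with quantile scaling. In TB14, members called lower (10) numbered 17 with cyclic loess scaling, 16 without the TB13 arrays and 0 at 2-fold with either scaling; enzymes (7) numbered 13, 12 and 0, and members called higher (5) 3 with quantile scaling and 0 at 2-fold with either. For both lines, members called lower (23) numbered 3 at 2-fold and 1 with quantile scaling too, enzymes (16) 2 and 1, and members called higher (1) 3 with quantile or cyclic loess scaling, 6 on the control calibration, and 0 with median scaling or at 2-fold with either scaling. For TB14 against TB13, members called lower (1) numbered 4 with quantile or cyclic loess scaling, 7 on the control calibration and 0 at 2-fold with either, enzymes called lower (0) 1, 1 and 3, and members called higher (22) 3 with quantile scaling at 2-fold. The cause was not tested, except that under the same scaling a 2-fold threshold can only lower a count. The fit without the TB13 arrays also took its spread estimate from the Trib1 and TB14 arrays alone. Leaving out 1 array at a time gave 23 to 24, 1 to 1 and 16 to 17 (members lower, members higher, enzymes lower) in TB13, 10 to 14, 4 to 6 and 7 to 10 in TB14, 23 to 24, 1 to 1 and 16 to 17 for both lines, and 1 to 1, 22 to 23 and 0 to 0 (the last being enzymes lower) for TB14 against TB13. Of 1200 such single-gene results 1 lost its call, 17 gained one and 0 changed direction. Under the replicate block the counts of members called lower were 23, 10, 23 and 1 in these 4 comparisons, as without the block, and no call changed.

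Directions that turned were the following log2 differences. With quantile scaling, at either threshold, Scap was 0.031 in TB13 and 0.13 in both lines, Abcg1 0.40 and 0.15, Insig2 0.018 in both lines, and Mylip -0.43 for TB14 against TB13; at the adjusted p alone Hsd17b7 was 0.55 in TB13 and Abcg1 -0.50 for TB14 against TB13. With cyclic loess scaling Hsd17b7 was 0.57, Insig2 0.0043, Scap 0.032 and Abcg1 0.42 in TB13, Insig2 0.068, Scap 0.11 and Abcg1 0.14 in both lines, and Abcg1 -0.56 and Mylip -0.47 for TB14 against TB13. On the control calibration Hmgcs1 was 0.0043, Mvk 0.039, Ggps1 0.043, Hsd17b7 0.95, Insig2 0.43, Scap 0.28 and Abcg1 0.52 in TB13, Ggps1 0.10, Hsd17b7 0.36, Dhcr7 0.15, Insig2 0.30, Scap 0.28 and Abcg1 0.23 in both lines, and Hmgcs1 -0.57, Mvk -0.23, Insig2 -0.26, Scap -0.0058, Abcg1 -0.59 and Mylip -0.64 for TB14 against TB13. With the mean of all probe sets Hsd17b7 was 0.47 for TB14 against TB13 and Stard4 0.15 in TB14; with the next brightest probe set Hsd17b7 was 1.02 for TB14 against TB13, Insig2 -0.0075 and Stard4 0.44 in TB14, and Srebf2 0.00022 in both lines. All other single-gene results kept their direction, or lacked a call as deposited.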
